A study of Schizosaccharomyces pombe with 13 samples.

Results

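The genes described here, 10 in number, act in nitrogen uptake and nitrogen starvation, and were followed in fission yeast (Schizosaccharomyces pombe) that lacked xap5, pht1 or both. They were chosen by name and not by a measured value, though with earlier results of these data known. All 10 were found among the 5747 entries of the sense table, while 3 of them also appear among the 1561 entries of the antisense table. They comprise the ammonium transporter genes amt1, amt2 and amt3, the urea transporter gene SPBC23G7.13c, the glutamine synthetase gene gln1, the starvation genes isp4, isp5, isp6 and isp7, and the polyubiquitin gene ubi4. The series asks how Xap5, a conserved nuclear protein, and the histone variant H2A.Z, encoded by pht1, restrain aberrant transcripts.

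Total RNA was depleted of ribosomal RNA and sequenced strand-specifically from 4 wild-type libraries and 3 libraries of each deletion strain. All strains are haploid, have the ED668 background and carry the markers ade6-M216, leu1-32 and ura4-D18. Wild type is h+. The xap5 deletion strain (xap5 mutant) is also h+, comes from the Bioneer collection and has KanMx4 in place of the gene. The pht1 deletion strain (pht1 mutant) has NatMx4 in place of pht1 and is h-, and the double mutant carries both replacements and is h- too. Every culture was started in YES, a rich medium, at 30 °C and then grown at 37 °C in EMM50 to the exponential phase, so that no group was starved of nitrogen by its label. Each deletion is 1 strain, and the labels do not say whether the libraries of a strain came from separate cultures, so the p-values may measure technical spread.

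The values are the authors' own comparisons of each deletion strain with wild type, with a log2 fold and its p-value, raw and adjusted, for every entry. Values of single libraries, levels and standard errors were not used here, so folds stand without an error and levels of different genes were not compared. A gene is said to have risen or fallen where its deposited adjusted p was under 0.05. The 3 comparisons share the wild-type libraries. The deleted genes were low where the labels say so: the xap5 entry had deposited log2 folds of −3.11 in the xap5 mutant and −2.11 in the double mutant, and the pht1 entry had −2.13 in the pht1 mutant and −1.55 in the double mutant. The mating-type entries go against the labels. mat1-Mc, a gene of h- cells, had deposited log2 folds of −4.27 in the xap5 mutant (adjusted p = 4.71e-25), 0.16 in the pht1 mutant (adjusted p = 0.694) and 0.84 in the double mutant (adjusted p = 0.00181). A further Mc entry, SPMTR.04, had −5.02 (deposited adjusted p = 7.65e-30), 0.27 (adjusted p = 0.471) and 0.96 (adjusted p = 3.14e-04) in the same order. The Mc entries may share reads, so SPMTR.04 may not be a separate measure. Mc signal was thus far lower in the xap5 mutant than in the libraries labelled wild type, which share its h+ label, while the strains labelled h- showed either no call or a rise of less than 1 against those libraries. Which labels are at fault was not tested, and wild type enters every fold. In no comparison can the deletion and a difference in mating type be told apart.

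Fission yeast takes up ammonium through the Amt transporters, and glutamine synthetase joins it to glutamate to make glutamine, the amino group donor for much of the cell's synthesis. When good nitrogen sources run out, signalling through the TORC1 kinase complex falls, transporters for poorer sources are made, proteins are broken down in the vacuole, and haploid cells arrest and turn to mating. The GATA factor Gaf1 acts in this response, and GATA factors bind DNA at the letters GATA. The isp genes were first found as transcripts induced in sexual development, which nitrogen starvation sets off.

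The stretches of DNA before 4 of the genes are shown because they hold the letters GATAAG and because each of these genes fell in the xap5 mutant. Each line gives the 300 bases directly before the RefSeq transcript start (assembly ASM294v3), 5′ to 3′ on the gene's own strand, with every GATAAG, or CTTATC where the match is on the other strand, in capitals. The stretches lie at chromosome III 2068679 to 2068978 (plus strand) for amt1, II 2125361 to 2125660 (minus strand) for SPBC23G7.13c, I 5466457 to 5466756 (plus strand) for isp5 and I 4183020 to 4183319 (minus strand) for isp7.
amt1: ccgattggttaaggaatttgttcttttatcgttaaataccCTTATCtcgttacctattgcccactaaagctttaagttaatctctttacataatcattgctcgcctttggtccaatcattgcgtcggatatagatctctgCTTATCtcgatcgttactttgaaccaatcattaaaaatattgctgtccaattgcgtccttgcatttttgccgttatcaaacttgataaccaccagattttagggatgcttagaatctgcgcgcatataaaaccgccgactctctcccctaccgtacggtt
SPBC23G7.13c: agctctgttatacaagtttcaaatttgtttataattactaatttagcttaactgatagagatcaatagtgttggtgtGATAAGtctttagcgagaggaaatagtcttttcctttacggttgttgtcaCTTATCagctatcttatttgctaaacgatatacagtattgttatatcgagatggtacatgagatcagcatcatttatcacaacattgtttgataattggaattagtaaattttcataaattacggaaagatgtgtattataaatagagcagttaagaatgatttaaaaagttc
isp5: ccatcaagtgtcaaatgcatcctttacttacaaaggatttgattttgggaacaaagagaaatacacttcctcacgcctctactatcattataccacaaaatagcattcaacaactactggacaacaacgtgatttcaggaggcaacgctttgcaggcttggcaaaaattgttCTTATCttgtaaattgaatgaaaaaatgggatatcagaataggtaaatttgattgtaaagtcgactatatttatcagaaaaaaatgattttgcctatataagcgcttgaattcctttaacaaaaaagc
isp7: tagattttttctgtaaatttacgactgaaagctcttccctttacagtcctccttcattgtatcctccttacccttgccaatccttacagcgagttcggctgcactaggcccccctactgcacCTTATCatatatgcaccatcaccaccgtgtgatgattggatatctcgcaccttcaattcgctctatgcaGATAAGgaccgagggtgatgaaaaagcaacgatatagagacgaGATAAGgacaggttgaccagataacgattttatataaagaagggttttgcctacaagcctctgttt

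GATAAG stood on either strand before 5 of the 10 genes, against 11.7% of 5112 promoters of protein-coding genes of the same length. It occurred at 3 places before isp7, at 2 before amt1, SPBC23G7.13c and amt3, and at 1 before isp5. gln1 and amt2, which also fell in the xap5 mutant, hold none in this window. The RefSeq models of amt3 and isp4 begin at the start codon, so their stretches may hold transcribed bases. That of amt3, which rose in the xap5 mutant, is not printed. In the 1000 bases before the coding start the letters were found for 9 of the 10 genes, with amt2 the exception, against 33.8% of such windows. That window holds transcribed bases for genes with a long leader: the transcript begins 1285 bases before the coding start of isp7, so its whole window is transcribed, and 827 bases before that of amt1. Of the other motifs searched on both strands, the stress element TGACGT stood before amt3 (6.03% of promoters) and the heat shock element GAANNTTC before isp4 (11.3%). TTCTTTGTT, the core of the site of the mating regulator Ste11, was before none of the 10 in the 300-base window (2.01%). These are matches of letters and not measured binding.

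In the xap5 mutant 9 of the 10 genes passed the threshold, where 41.7% of all sense entries did. Of these, 6 fell (20.6% of all entries) and 3 rose (21.1%). The median deposited log2 fold of the 10 was −0.63, beside −0.01 over all sense entries. The urea transporter, the ammonium transporters amt1 and amt2, glutamine synthetase, the permease isp5 and the oxygenase isp7 fell, while the protease isp6, polyubiquitin and the ammonium transporter amt3 rose. In the pht1 mutant 6 passed (24.6% of all entries), 3 in each direction (11.1% lower and 13.5% higher), with a median of 0.01 beside −0.02. In the double mutant 8 passed (64.9% of all entries), 4 lower (34.3%) and 4 higher (30.5%), with a median of −0.21 beside −0.05. Set against that background, 8 of 10 does not mark these genes out in the double mutant at this threshold. With an adjusted p under 0.01, 9, 5 and 7 of the 10 passed (xap5, pht1 and double), where 31.4%, 14.4% and 55.9% of all entries did. A fold of at least 1 on the log2 scale as well was reached by 6, 2 and 7 of the 10, where 9.27%, 4.63% and 20.2% of all entries reached it.

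**Figure D1:**
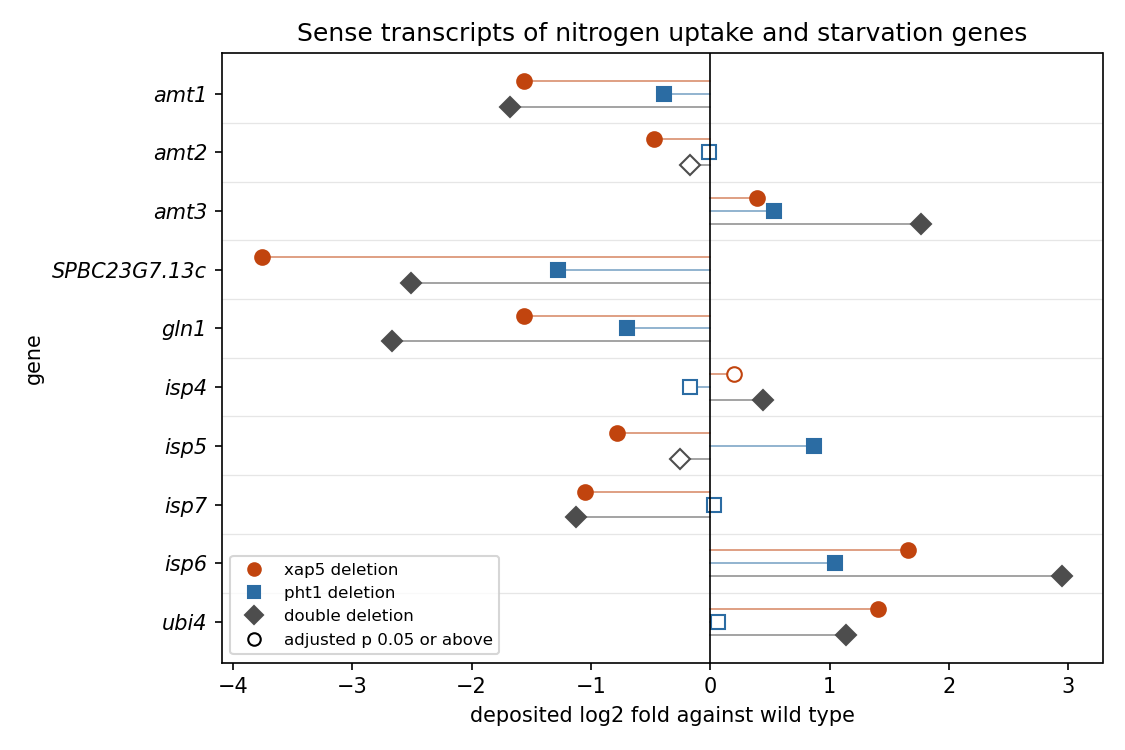
Deposited log2 fold against wild type (x axis) of the sense transcript of each of the 10 genes (y axis) in the xap5 mutant (circles), the pht1 mutant (squares) and the double mutant (diamonds), with open symbols where the adjusted p was 0.05 or above. The urea transporter gene SPBC23G7.13c, amt1 and gln1 lie below 0 in all 3 comparisons, and amt3 and isp6 lie above 0 in all 3.

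The ammonium transporters went separate ways. amt1 (SPCPB1C11.01, chromosome III 2068979 to 2071707, plus strand) fell in the xap5 mutant by 1.56 on the log2 scale (deposited adjusted p = 2.47e-23), a level 2.96-fold lower than in wild type. Its deposited log2 fold was −0.39 in the pht1 mutant (adjusted p = 0.0342) and −1.68 in the double mutant (adjusted p = 5.61e-27), which is 3.21-fold lower. The fold in the double mutant minus that in the xap5 mutant was −0.12, and minus that in the pht1 mutant it was −1.29, differences that carry no error and were not tested. amt2 (SPAC664.14, chromosome I 1731069 to 1733268, plus strand) changed least of the transporters that fell. Its deposited log2 fold was −0.47 in the xap5 mutant (adjusted p = 4.66e-04), −0.01 in the pht1 mutant (adjusted p = 0.966) and −0.17 in the double mutant (adjusted p = 0.211).

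The third ammonium transporter, amt3 (SPAC2E1P3.02c, chromosome I 2924692 to 2926446, minus strand), was higher in each deletion strain. It rose by 0.39 in the xap5 mutant (deposited adjusted p = 0.00926), by 0.53 in the pht1 mutant (deposited adjusted p = 4.97e-04) and by 1.76 in the double mutant (deposited adjusted p = 1.65e-43), where its level was 3.39-fold that of wild type. In the double mutant its deposited fold lay 0.84 above the sum of the folds of both single mutants, without an error or a test. The 3 transporters are related proteins: translated from the reference coding sequences and aligned end to end, Amt1 (497 residues) and Amt2 (512 residues) were identical at 50.0% of 462 aligned positions, and Amt3 (517 residues) was identical to Amt1 at 43.1% and to Amt2 at 44.8%. No stretch of 100 bases, the read length, in any of these 3 genes occurred elsewhere in the reference genome, so their reads could be told apart.

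The urea transporter gene SPBC23G7.13c (chromosome II 2123087 to 2125360, minus strand) had the lowest fold of the 10 genes in both single mutants. Its deposited log2 fold in the xap5 mutant was −3.76 (adjusted p = 7.51e-65), a level 13.5-fold lower, and 5 of the 5747 sense entries had a lower fold. It fell by 1.28 in the pht1 mutant (deposited adjusted p = 8.48e-10), a level 2.42-fold lower. In the double mutant it fell by 2.51 (deposited adjusted p = 1.13e-34), a level 5.69-fold lower. The log2 fold in the double mutant minus that in the xap5 mutant was thus 1.25, and minus that in the pht1 mutant it was −1.23. It was 2.52 above the sum of both single folds. This was the largest such distance among the 10 genes, and it was not tested.

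Glutamine synthetase, gln1 (SPAC23H4.06, chromosome I 1596073 to 1598064, minus strand), which makes glutamine from glutamate and ammonium, fell in each strain and most in the double mutant. The deposited log2 folds were −1.56 in the xap5 mutant (adjusted p = 1.78e-18), −0.70 in the pht1 mutant (adjusted p = 3.34e-04) and −2.66 in the double mutant (adjusted p = 2.51e-48). The last is a level 6.34-fold lower than in wild type, and 4 sense entries had a lower fold in that comparison. The fold of gln1 in the double mutant minus that in the xap5 mutant was −1.11, and minus that in the pht1 mutant it was −1.97.

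**Figure D2:**
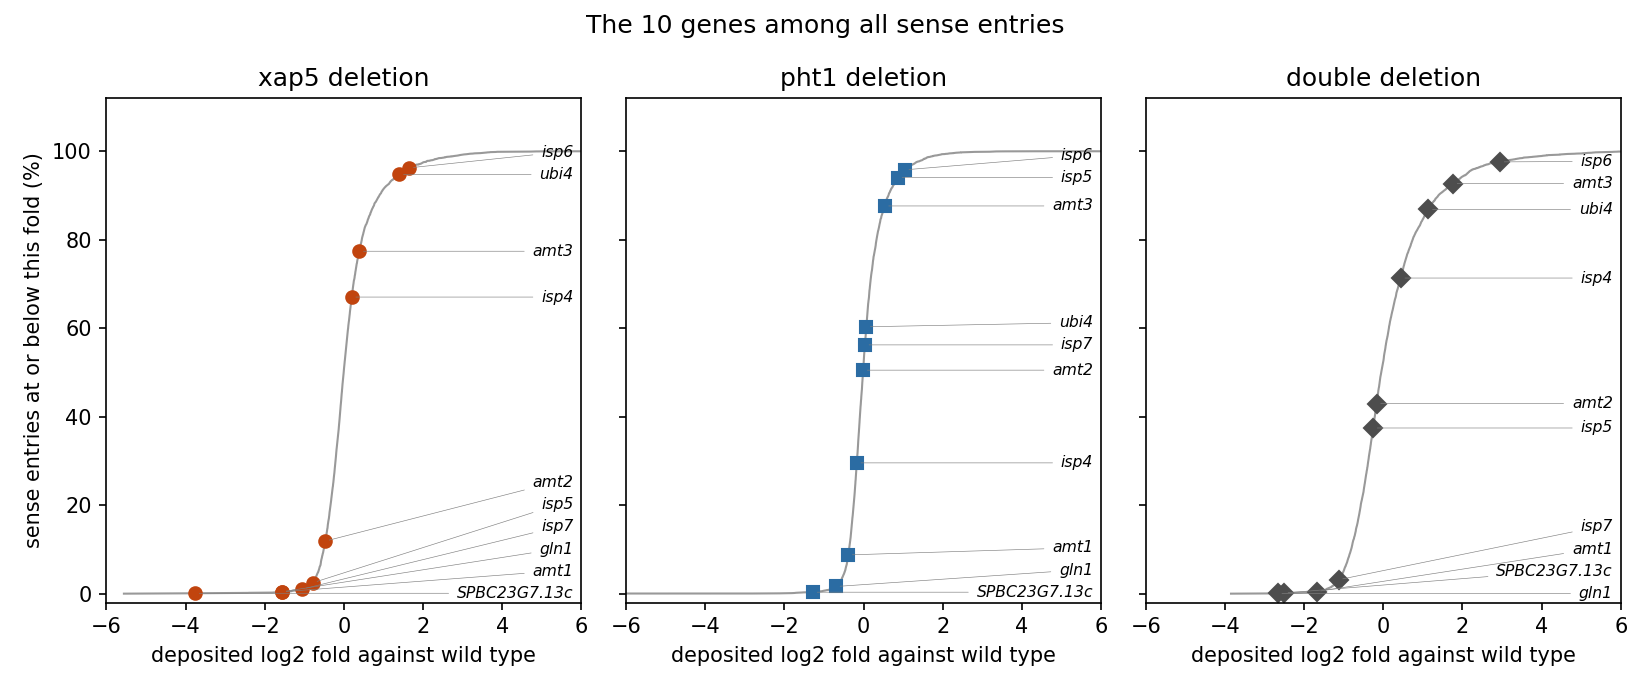
Share of all 5747 sense entries (y axis, percent) with a deposited log2 fold at or below the value on the x axis (grey line), with a panel each for the xap5 mutant, the pht1 mutant and the double mutant, and with the 10 genes marked and named. The x axis ends at 6 in either direction, which leaves out 3, 3 and 6 entries. In the double mutant gln1, SPBC23G7.13c and amt1 sit at the lower end of all entries and isp6 near the upper end.

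The starvation genes isp4, isp5 and isp7, which act at the membrane or in amino acid uptake, were not changed in 1 direction. isp7 (SPAC25B8.13c, chromosome I 4179961 to 4183019, minus strand), a predicted oxygenase linked to TOR signalling and amino acid uptake, had deposited folds of −1.05 in the xap5 mutant (adjusted p = 3.05e-11) and −1.13 in the double mutant (adjusted p = 3.22e-13). Its deposited fold in the pht1 mutant was 0.03 (adjusted p = 0.898). The amino acid permease gene isp5 (SPAC1039.09, chromosome I 5466757 to 5468649, plus strand) lies 110.5 kb from the end of its chromosome and was the one gene of the 10 with calls in opposite directions. It fell by 0.78 in the xap5 mutant (deposited adjusted p = 8.2e-06) and rose by 0.87 in the pht1 mutant (deposited adjusted p = 1.88e-07). With both genes lost the deposited fold was −0.26 (adjusted p = 0.137). isp4 (SPBC29B5.02c, chromosome II 1550293 to 1552791, minus strand), an oligopeptide transporter, passed in the double mutant alone, with a deposited log2 fold of 0.44 (adjusted p = 0.0191). Its folds were 0.20 in the xap5 mutant (deposited adjusted p = 0.386) and −0.17 in the pht1 mutant (deposited adjusted p = 0.527).

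The genes of protein breakdown rose in the xap5 and double mutants. isp6 (SPAC4A8.04, chromosome I 2544842 to 2546981, plus strand), a subtilisin-like serine protease of the vacuole, had deposited log2 folds of 1.65 in the xap5 mutant (adjusted p = 5.09e-29), 1.04 in the pht1 mutant (adjusted p = 3.08e-11) and 2.95 in the double mutant (adjusted p = 8.76e-88). The last is a level 7.73-fold that of wild type. This was the highest fold of the 10 genes in each comparison, and in the double mutant it lay 0.25 above the sum of both single folds. ubi4 (SPBC337.08c, chromosome II 1044271 to 1045592, minus strand), which encodes ubiquitin as a chain of repeats, rose by 1.40 in the xap5 mutant (deposited adjusted p = 1.67e-13) and by 1.14 in the double mutant (deposited adjusted p = 1.18e-09). Its deposited fold in the pht1 mutant was 0.07 (adjusted p = 0.825). Of the 100-base stretches of ubi4, 63.3% occur more than once in the genome, counting its own repeats, and how the authors counted such reads is, in the sources used here, not given, so its folds are uncertain. None of the single-ubiquitin fusion genes was called higher: of ubi1, ubi2, ubi3 and ubi5, 2 fell in the xap5 mutant (ubi2, −0.37, and ubi5, −0.37, in the deposited table), none passed in the pht1 mutant and 2 fell in the double mutant (ubi5, −0.76, and ubi2, −0.45), where 20.6%, 11.1% and 34.3% of all entries fell.

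Antisense signal was examined next, because the series concerns aberrant transcripts. The antisense table lists features that changed in at least 1 comparison by its header, so a listed gene had to differ somewhere, and 86.3% of its entries were called in the double mutant. amt1, isp4 and isp6 are listed, and antisense signal at each rose in the double mutant (76.7% of entries rose there) and was not called in either single mutant, where 34.6% (xap5; 33.0% higher) and 46.4% (pht1; 42.6% higher) of entries were. At amt1 the deposited antisense log2 fold was 2.20 in the double mutant (adjusted p = 2.41e-04), beside 1.18 in the xap5 mutant (adjusted p = 0.181) and 1.01 in the pht1 mutant (adjusted p = 0.282). The sense and antisense signals of amt1 thus moved in opposite directions in the double mutant. At isp6 the antisense fold was 2.57 in the double mutant (deposited adjusted p = 0.0056), beside 1.69 (adjusted p = 0.274) and 0.64 (adjusted p = 0.763) in the xap5 and pht1 mutants, so both strands of isp6 rose. At isp4 it was 0.93 in the double mutant (deposited adjusted p = 0.00154), with −0.05 and 0.11 in the xap5 and pht1 mutants.

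Another 3 of the genes are covered on the other strand by annotated antisense RNAs that have their own entries. SPNCRNA.758 covers 70.5% of amt2 and rose by 1.99 in the xap5 mutant (deposited adjusted p = 1.86e-04) and by 2.57 in the double mutant (deposited adjusted p = 7.57e-08), with 0.95 in the pht1 mutant (adjusted p = 0.217). In the xap5 mutant amt2 itself fell by 0.47, so the strands moved in opposite directions there, and the deposited folds of amt2 in the pht1 and double mutants, −0.01 and −0.17, were not called. SPNCRNA.859 covers 97.0% of amt3 and rose by 0.60 in the pht1 mutant (deposited adjusted p = 0.0477) and by 1.07 in the double mutant (deposited adjusted p = 1.33e-05), with 0.32 in the xap5 mutant (adjusted p = 0.319). SPNCRNA.1488 covers 89.9% of SPBC23G7.13c and did not mirror it. This RNA fell by 1.06 in the double mutant (deposited adjusted p = 5.17e-05), and its deposited folds in the single mutants were −0.06 (xap5, adjusted p = 0.876) and 0.24 (pht1, adjusted p = 0.466). The libraries were strand-specific by their labels, and how the authors used strand in counting is, in the sources used here, not given.

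**Figure D3:**
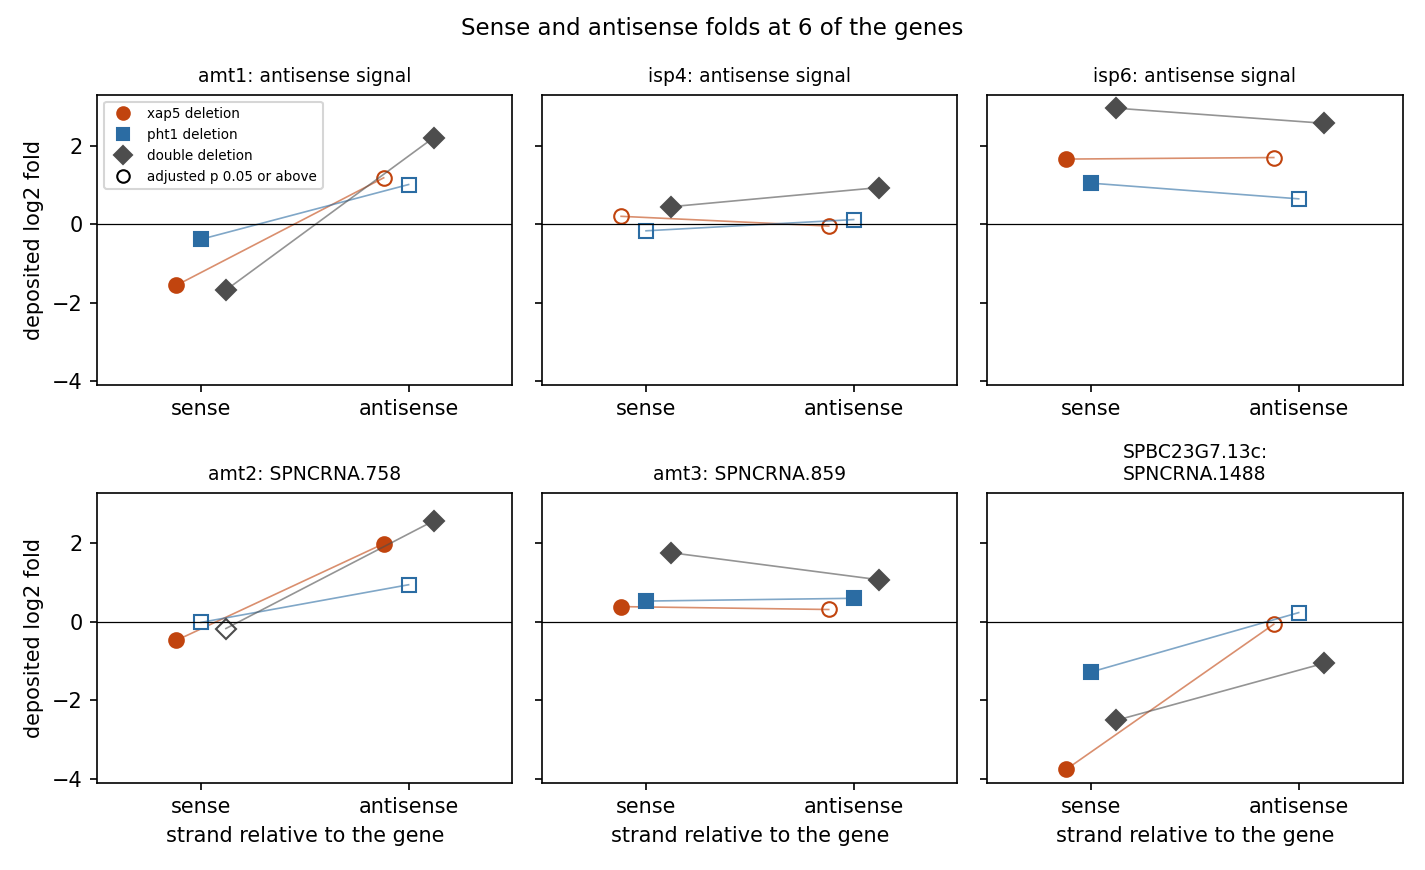
Deposited log2 fold against wild type (y axis) of the sense transcript and of the antisense signal (x axis) at 6 of the genes, with the antisense signal of the gene itself for amt1, isp4 and isp6 and that of an annotated antisense RNA for amt2, amt3 and SPBC23G7.13c. Colours and symbols stand for the deletion strains and open symbols for an adjusted p of 0.05 or above. The lines of amt1 cross 0, from −1.68 in sense to 2.20 in antisense in the double mutant, while both strands of isp6 lie above 0.

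The surroundings of amt3 rose with it in the double mutant. A retrotransposon, Tf2-3 (chromosome I 2927204 to 2931205), lies upstream on the same strand, 757 bases before amt3. Tf2-3 rose in the double mutant by 2.14 (deposited adjusted p = 1.17e-48), and a region of 128 bases at its boundary on the amt3 side (2927076 to 2927203) rose by 2.65 (deposited adjusted p = 1.41e-13). That region also rose by 1.19 in the pht1 mutant (deposited adjusted p = 0.04), with 0.99 in the xap5 mutant (adjusted p = 0.106). Tf2-3 is 1 of several near-identical copies, so its reads may stem from other copies, and reads at its boundary were not examined. SPAC2E1P3.01, a predicted dehydrogenase gene that meets amt3 tail to tail and overlaps it by 29 bases, rose by 2.07 (deposited adjusted p = 1.77e-58). In the single mutants the deposited folds of Tf2-3 were 0.42 (xap5) and 0.49 (pht1), close to those of amt3 itself. Those of SPAC2E1P3.01 were higher, at 1.03 (xap5) and 0.75 (pht1), both called. Farther out, cao1 beyond Tf2-3 had a deposited fold of 0.32 in the double mutant and SPAC513.07 beyond the dehydrogenase gene had 0.50, while dhd1, 6.81 kb downstream of the amt3 start, had 2.11 (adjusted p = 1.28e-63). Whether the rise of amt3 depends on Tf2-3 was not tested.

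Around the urea transporter gene the picture was uneven. The region of 269 bases directly after its 3′ end (chromosome II 2122818 to 2123086) fell with it, with deposited folds of −3.93 in the xap5 mutant (adjusted p = 9.23e-09), −1.41 in the double mutant (adjusted p = 0.0136) and −0.59 in the pht1 mutant (adjusted p = 0.591). The next gene, rpt6 of the proteasome, did not pass in any comparison, with deposited folds of 0.08, 0.01 and 0.25 in the order xap5, pht1 and double mutant. The mating-type gene mat1-Mc, with its fold of −4.27 in the xap5 mutant in the deposited table, lies 8.06 kb away on the same side. Between them, the DNA repair gene mag2 rose by 3.81 in the double mutant (deposited adjusted p = 4.82e-18), and SPBC23G7.10c fell by 1.33 in the xap5 mutant (deposited adjusted p = 2.64e-04), rose by 0.95 in the pht1 mutant (deposited adjusted p = 0.00854) and rose by 3.42 in the double mutant (deposited adjusted p = 4.25e-28). Reads of mat1-Mc are shared with its silent copy. On the upstream side, the noncoding RNA SPNCRNA.389 fell in each strain, with deposited folds of −2.42, −1.74 and −1.28 in the same order as rpt6. The gene rpp202 fell in each strain too (−0.64, −0.58 and −0.43 in the deposited table). SPBC23G7.14, nearest on that side, was not called in the single mutants and rose by 0.38 in the double mutant. Farther out, mat3-Mc had −4.28 in the xap5 mutant in the deposited table. Whether the fold of the urea transporter depends on the mating-type locus was not tested.

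**Figure D4:**
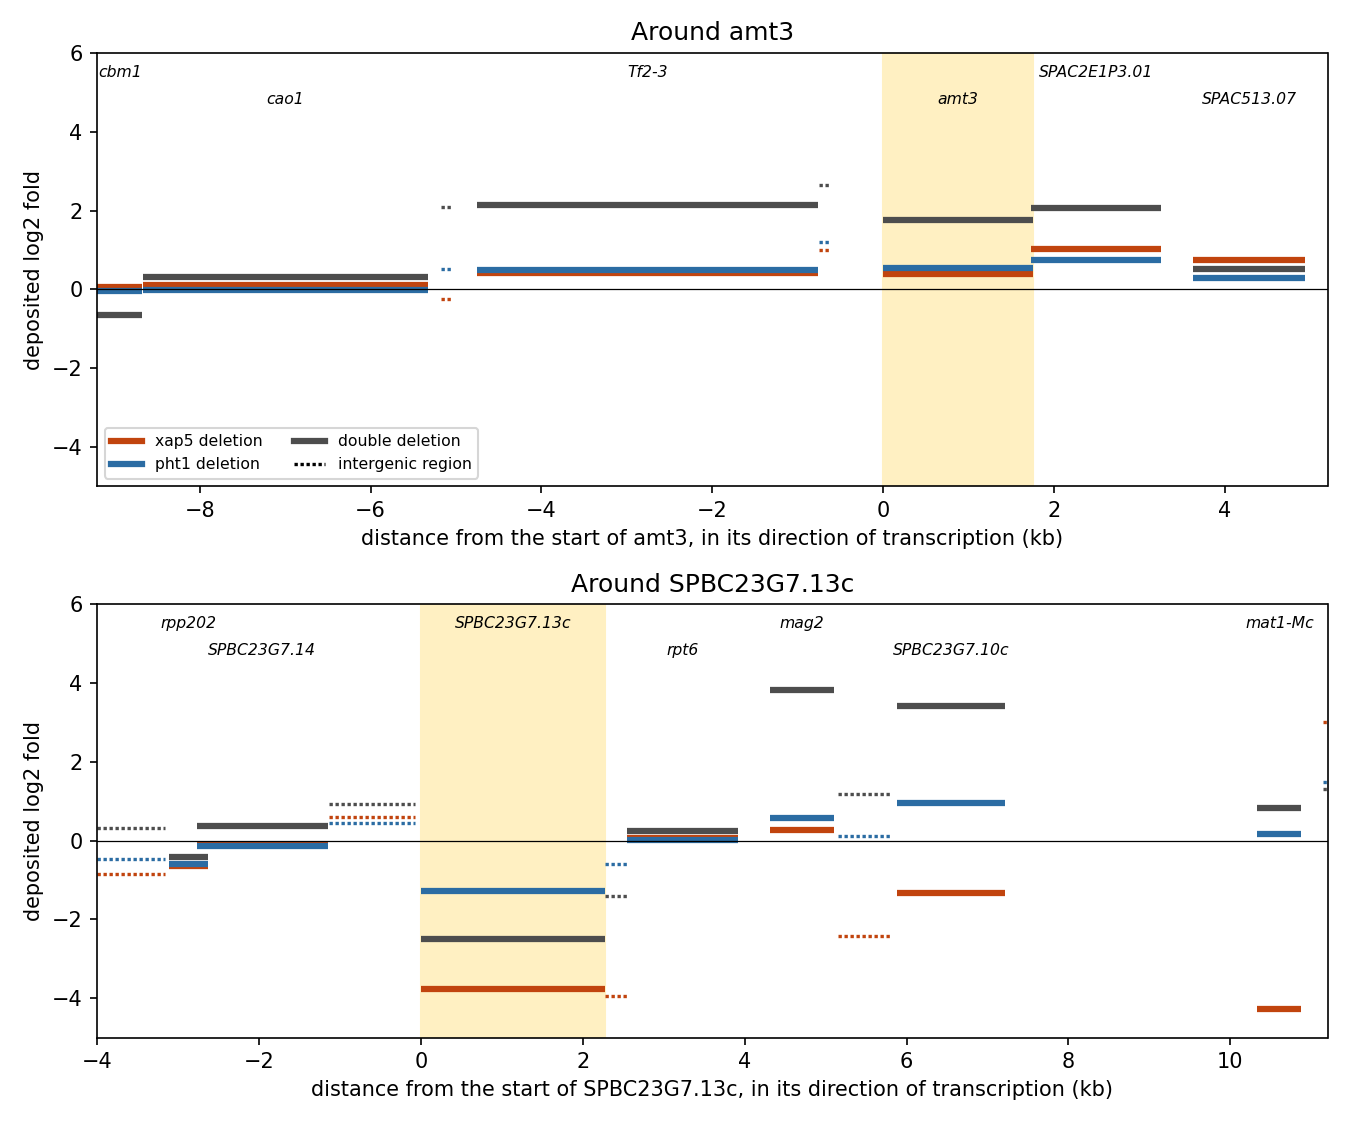
Deposited log2 fold against wild type (y axis) of gene entries (solid bars) and intergenic regions of at least 100 bases (dotted bars) by distance from the start of amt3 or SPBC23G7.13c in its direction of transcription (x axis, kb), with the gene itself shaded. In the double mutant Tf2-3, amt3 and SPAC2E1P3.01 lie at 1.76 to 2.14, and beside SPBC23G7.13c the rpt6 gene lies between 0.01 and 0.25 in all 3 comparisons. SPNCRNA.389 and mat3-Mc, upstream of SPBC23G7.13c, lie outside the panel.

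Across the 10 genes, 14 intergenic regions within 100 bases of an end were listed, for 9 of the genes, with none for amt3. In the xap5 mutant 2 fell and none rose, where 3.33% of all 6121 regions were called. Both lie after the 3′ end of a gene that fell, SPBC23G7.13c (above) and isp7 (−1.23, deposited adjusted p = 0.0124). None of the 14 was called in the pht1 mutant (1.85% of all regions by the deposited adjusted p). With both genes lost, 2 fell and 3 rose, where 16.6% of all regions were called. Those that fell are the same places after SPBC23G7.13c and isp7 (−0.98, deposited adjusted p = 0.0356). Those that rose lie after the 3′ end of isp5 (1.91, deposited adjusted p = 2.49e-05), isp6 (1.82, deposited adjusted p = 0.031) and ubi4 (0.94, deposited adjusted p = 0.00759). The strand of these regions is not given in the table.

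Nearest neighbours differed from the genes themselves in several places. Downstream of amt1, which fell, the amino acid permease gene SPCPB1C11.02 rose in each strain, with deposited log2 folds of 1.50, 1.51 and 2.50 in the order xap5, pht1 and double mutant (adjusted p = 3.1e-15, 1.01e-14 and 1.66e-42). Beside isp4, the stress transcription factor gene atf1 rose by 1.77 in the xap5 mutant (deposited adjusted p = 4.93e-24) and by 2.25 in the double mutant (deposited adjusted p = 9.13e-39). SPNCRNA.834, which overlaps the first 70 bases of isp6 on the same strand, rose by 0.89 in the xap5 mutant (deposited adjusted p = 4.62e-04) and by 1.06 in the double mutant (deposited adjusted p = 8.85e-06), so some of its reads may count for isp6. Of the 20 nearest entries, 1 on each side of each gene, 8 rose and 2 fell in the xap5 mutant, 7 rose and none fell in the pht1 mutant, and 10 rose and 4 fell in the double mutant. Over all sense entries 21.1%, 13.5% and 30.5% rose and 20.6%, 11.1% and 34.3% fell in the order xap5, pht1 and double mutant, and the same shares stand behind the counts of gene groups that follow.

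Of 8 other genes of ammonia and urea use, 3 fell and 1 rose in the xap5 mutant, where 20.6% of all entries fell. None rose and 2 fell in the pht1 mutant (11.1% fell over all entries), and 4 fell and 1 rose in the double mutant (34.3% fell over all entries). With so few genes these counts lie close to the background, and the list medians were −0.13, −0.29 and −0.33. gdh1, the glutamate dehydrogenase that fixes ammonium, had deposited folds of −0.97 in the xap5 mutant (adjusted p = 3.19e-10) and −1.44 in the double mutant (adjusted p = 3.94e-21). gdh2, the glutamate dehydrogenase that releases ammonium, went the other way, rising by 0.55 in the xap5 mutant (deposited adjusted p = 5.25e-04) and by 1.96 in the double mutant (deposited adjusted p = 1.08e-41). The glutamate synthase gene glt1 had deposited folds of −0.74 in the pht1 mutant (adjusted p = 6.92e-06) and −1.01 in the double mutant (adjusted p = 2.37e-11). The urease gene SPAC1952.11c fell in each strain, with deposited folds of −0.38, −0.51 and −0.59 (adjusted p = 0.0056, 3.32e-04 and 3.07e-06), and asn1 of asparagine synthesis fell by 0.53 in the xap5 mutant alone (deposited adjusted p = 9.73e-04).

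Of 8 other transporters for amino acids and peptides, 5 fell and 1 rose in the xap5 mutant, 4 fell and none rose in the pht1 mutant, and 5 fell and 1 rose in the double mutant, with list medians of −0.36, −0.26 and −0.48. Over all entries 20.6%, 11.1% and 34.3% fell. The peptide transporter gene ptr2 fell in each strain, with deposited folds of −1.14, −0.60 and −0.46 (adjusted p = 3.45e-13, 4.86e-04 and 0.00271). The permease gene per1 fell by 0.79 in the xap5 mutant (deposited adjusted p = 1.05e-08), where alone it was called, and put4, named for proline uptake, fell in each strain, with −0.42, −0.52 and −0.84 (deposited adjusted p = 0.00426, 6.37e-04 and 1.34e-09). The one that rose was agp3, by 4.73 in the xap5 mutant (deposited adjusted p = 3.86e-19) and by 1.81 in the double mutant (deposited adjusted p = 2.13e-04). aat1 was called in the double mutant alone, with a deposited fold of −1.02 (adjusted p = 1.7e-11). fnx2 fell in each strain, with −0.29, −0.31 and −0.74 in the deposited table, and fnx1 fell in the pht1 mutant (−0.46) and the double mutant (−0.50) in the deposited table.

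Of 30 other genes of vacuolar proteolysis and autophagy, 17 rose and 1 fell in the xap5 mutant (list median 0.44), where 21.1% of all sense entries rose. In the pht1 mutant 8 rose, 2 fell and 20 were not called (list median 0.27), where 13.5% of all entries rose. Of the same 30, 27 rose and 1 fell in the double mutant (list median 0.79), where 30.5% of all entries rose. The mitophagy receptor gene atg43 had deposited folds of 0.86, 0.83 and 2.03 in the order xap5, pht1 and double mutant (adjusted p = 4.2e-11, 5.45e-10 and 5.23e-61). The serine protease gene psp3 had deposited folds of 0.68, 0.73 and 1.62, all called. The sorting nexin gene atg20 had 1.47, 0.59 and 1.91 in the deposited table, and atg4, whose protease processes Atg8, had 0.57, 0.81 and 1.53, again called in each strain. atg101 and atg13, of the complex that starts autophagy, were called in the xap5 and double mutants, with deposited folds of 1.30 and 1.77 for atg101 and of 0.74 and 1.57 for atg13. atg11 fell in each strain, with −0.29, −0.37 and −0.37 in the deposited table.

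Of 9 genes that carry starvation into sexual development, 5 rose, 1 fell and 3 were not called in the xap5 mutant (list median 0.76), where 21.1% of all entries rose. In the pht1 mutant 4 rose and 5 were not called (list median 0.31; 13.5% of all entries rose), and in the double mutant 8 rose and 1 was not called (list median 1.33; 30.5% of all entries rose). Genes of mating depend on mating type. The Mc folds given at the start were called in the xap5 and double mutants and not in the pht1 mutant. Their part in the folds of this list was not tested. ste11, the regulator that opens sexual development, had deposited folds of 2.01, 0.79 and 2.48 in the order xap5, pht1 and double mutant (adjusted p = 6.12e-16, 0.006 and 5.21e-24). mei2, which is needed for meiosis, rose by 1.26 in the xap5 mutant (deposited adjusted p = 2.05e-10) and by 1.38 in the double mutant (deposited adjusted p = 7.46e-13). mei3, an inhibitor of the kinase Pat1, and rep1, a regulator of premeiotic genes, rose in each strain, with deposited folds of 1.87, 1.86 and 1.54 for mei3 and of 0.76, 0.69 and 0.71 for rep1. ste6, an activator of Ras in mating, rose in each strain too, with deposited folds of 1.31, 0.54 and 1.35 (adjusted p = 5.02e-09, 0.0475 and 5.29e-10).

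Calls among the genes that sense and pass on the nitrogen signal lay near the background. Of 23 genes of TOR and related signalling, 3 rose and 4 fell in the xap5 mutant, 2 rose and 4 fell in the pht1 mutant, and 7 rose and 7 fell in the double mutant, with list medians of −0.01, −0.09 and −0.01. Over all entries 21.1%, 13.5% and 30.5% rose and 20.6%, 11.1% and 34.3% fell. gaf1, the GATA factor gene, rose by 0.76 in the double mutant (deposited adjusted p = 4.43e-07) and had 0.23 (adjusted p = 0.197) and 0.08 (adjusted p = 0.73) in the xap5 and pht1 mutants. igo1, an endosulfine gene, rose by 0.67 in the xap5 mutant (deposited adjusted p = 1.3e-07) and by 1.15 in the double mutant (deposited adjusted p = 4.01e-21). pat1, the kinase gene that holds back meiosis, rose by 0.55 in the pht1 mutant (deposited adjusted p = 0.0352) and by 1.50 in the double mutant (deposited adjusted p = 2.42e-12). gtr1, a Rag GTPase gene of TORC1 signalling, had deposited folds of −0.56 in the pht1 mutant (adjusted p = 1.64e-04) and −0.91 in the double mutant (adjusted p = 3.32e-11). The kinase gene sck2 (−0.50 and −0.40 in the deposited table) and the TORC1 subunit gene mip1 (−0.44 and −0.28) fell in the pht1 and double mutants. In the xap5 and double mutants the kinase gene ppk18 rose (0.53 and 0.92 in the deposited table) and psk1 fell (−0.44 and −0.39). tor2, the kinase gene of TORC1, did not pass in any comparison, with deposited folds of −0.15, −0.29 and −0.09.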

How the data were processed

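Strand-specific RNA sequencing of 13 libraries, in single reads of 100 bases from 2 lanes with a stated mean of 11.8 M reads per library, lies behind the tables, per the labels' protocols. The depth of single libraries was not used here, so no counting interval is given. The authors deposited, per the file headers, a log fold with raw and adjusted p-values for each deletion against wild type. The authors' deposited folds were read as log2, by the convention of edgeR, which is named together with BWA 0.5.8c in the submitters' processing notes, without their roles. Count normalization and filters are not given in the sources used here. Some deposited p-values of the sense table exceed 1 (55 values), so these deposited p columns were handled as a score. The deposited adjusted p-value was used for every call, save in 1 recount given below. That recount adjusted the raw column anew, with values above 1 set to 1.

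Entries were matched to RefSeq genes (ASM294v3) by identifier in any case, with 5639 of 5747 matched. For 1563 of 6121 intergenic regions the deposited start is the final base of a reference gene, so 1 was added to intergenic starts. A deposited region adjoins the reference 3′ end of 8 of the 10 genes, on all 3 chromosomes, and other boundaries may differ. Promoters were read from the reference by RefSeq gene models. Differences between folds carry no error. The pathway lists were ammonia and urea assimilation, nitrogen and TOR signalling, sexual development, other transporters, vacuolar proteases and autophagy, and ubiquitin fusion genes. Of the first, 10 symbols were listed, 1 was not matched and 2 name the same entry. Named genes were the 10, their neighbours, and the 3 called genes of each list with the smallest deposited adjusted p per comparison, of which the text gives most. gaf1 and tor2 were named after their values were seen. The genes, lists and rules were chosen with earlier results of these data known. Calculations used Python 3.11.15, pandas 2.3.3 and Biopython 1.88. The code for the recomputed adjustment of p-values was tested on simulated data, which does not test the deposited adjusted p-values.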

Additional observations from a re-analysis of the deposited data

How the results depend on the processing

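Calls of the 10 genes were recounted with an adjusted p under 0.01 and with a minimum of 1 on the log2 scale. Another recount used Benjamini-Hochberg values recomputed over the sense table from the deposited raw p-values. A further recount left out isp6, which overlaps an entry on the same strand, and ubi4, whose reads may be shared. Genes that overlap entries on the other strand, such as amt3, were kept. In the pht1 mutant 2 of the 6 called genes, SPBC23G7.13c and isp6, reached 1 on the log2 scale. All other recounts lay within 1.5 times the reported counts: 6 to 9 in the xap5 mutant, 5 to 6 in the pht1 mutant and 6 to 8 in the double mutant. isp6 and ubi4 were both called in the xap5 and double mutants, so leaving them out lowers those counts by itself. At 0.01, amt1 was lost in the pht1 mutant and isp4 in the double mutant. Without isp6 and ubi4 the medians were −0.91, −0.09 and −0.69 in the order xap5, pht1 and double mutant, beside −0.63, 0.01 and −0.21 for all 10. Both genes lie above the median of the 10 in each comparison, so leaving them out lowers the medians by itself too. Subtracting the median of all sense entries turned no called fold. No paired analysis was possible because the tables hold comparisons and no value per library, and for the same reason no library could be left out. The unknown depth limits what low folds can show.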

Other observations

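For each of the 10 genes the entries with the most similar deposited folds were sought, as the smallest distance over the 3 log2 folds among 4198 entries called in at least 1 comparison. The closest match was between isp4 and mok14, a spore wall glucan synthase gene (distance 0.02), where all folds are small. Among genes with large folds, isp6 lay closest to cta3, a calcium-transporting ATPase gene, at a distance of 0.05, with deposited folds of 1.64, 1.05 and 3.00 for cta3 in the order xap5, pht1 and double mutant. amt1 lay closest to the adenine deaminase gene dea2 (distance 0.18, with deposited folds of −1.54, −0.23 and −1.78), and gln1 to SPAC8E11.10, a predicted sorbose reductase gene (distance 0.30, with −1.31, −0.60 and −2.53). SPBC23G7.13c had no close match, the nearest being the noncoding RNA SPNCRNA.200 at a distance of 1.35. The 3 folds share the wild-type libraries, so these distances are descriptions.

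SPAC23H4.05c, upstream of gln1, had deposited folds of −1.08 in the xap5 mutant (adjusted p = 3.35e-04) and −1.28 in the double mutant (adjusted p = 1.56e-05). SPNCRNA.968, a noncoding RNA after isp7 on the same strand, rose by 0.87 in the pht1 mutant (deposited adjusted p = 8.55e-05) and by 1.53 in the double mutant (deposited adjusted p = 3.6e-15), where isp7 fell.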
